A study of Mus musculus with 4 samples.

Results

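Collagens and other genes of the extracellular matrix were compared between the gastric lymph node and the pancreatico-duodenal lymph node, the left and the right node that drain the pancreas. The members were a list of 52 genes, and a member was found where the transcript accession of a probe matched its symbol. Probes were found for 48 of the 52 genes, 73 probes in all among 41174 on the array, and 44 genes had a probe bright enough to be tested, among 21320 genes and unnamed transcripts. Col6a3, Col12a1, Lamc1 and Lox had no matched probe and were not analysed here. Lama2, Vcan, Mfap5 and Fbln5 had only dim probes, none of which was well above background in either channel on more than 1 array, and were not tested.

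Both nodes came from each of 4 female mice of the strain NOD, an inbred strain that develops autoimmune diabetes on its own, aged 12 weeks, for which the labels give no treatment. The paired nodes of a mouse were hybridised to a single two-colour array, the gastric node labelled with Cy5 (red) and its partner with Cy3 (green). All ratios are gastric over pancreatico-duodenal on the log2 scale, and values under 0 mean less signal in the gastric node. No array had the dyes turned round, so that dye and node cannot be told apart for any gene. Whole nodes were homogenised, so fewer cells of a type and less RNA per cell cannot be told apart either.

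The matrix is the protein scaffold outside cells. Fibrillar collagens are trimers that pack into tension-bearing fibres, small leucine-rich proteoglycans coat those fibres, the elastic fibre is an elastin core on a fibrillin sheath, and the basement membrane is a sheet of type IV collagen, laminin and nidogen under endothelium and epithelium. In a lymph node, fibroblastic reticular cells wrap a collagen core that forms conduits for fluid from the lymph, while a collagen-rich capsule, trabeculae and vessel walls hold further matrix.

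A tight genomic pair stands among the members, and its shared start region is shown because the readings of both genes can be set side by side. Col4a1 and Col4a2, whose chains assemble into the common form of type IV collagen, lie head to head and are read from opposite strands. The 2 windows below run from 250 bases before to 50 bases after each RefSeq start site (build GRCm38.p6), at chr8:11312777-11313076 (minus strand) and chr8:11312555-11312854 (plus strand). Capitals mark the 78 bases that both windows hold, on opposite strands, and the 2 start sites are 21 bases apart.
Col4a1: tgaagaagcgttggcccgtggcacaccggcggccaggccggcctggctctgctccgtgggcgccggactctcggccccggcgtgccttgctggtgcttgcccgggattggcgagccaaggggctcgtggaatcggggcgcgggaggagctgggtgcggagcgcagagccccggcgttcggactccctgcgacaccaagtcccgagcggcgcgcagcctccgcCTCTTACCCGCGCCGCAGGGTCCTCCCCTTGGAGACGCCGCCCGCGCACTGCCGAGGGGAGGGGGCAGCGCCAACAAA
Col4a2: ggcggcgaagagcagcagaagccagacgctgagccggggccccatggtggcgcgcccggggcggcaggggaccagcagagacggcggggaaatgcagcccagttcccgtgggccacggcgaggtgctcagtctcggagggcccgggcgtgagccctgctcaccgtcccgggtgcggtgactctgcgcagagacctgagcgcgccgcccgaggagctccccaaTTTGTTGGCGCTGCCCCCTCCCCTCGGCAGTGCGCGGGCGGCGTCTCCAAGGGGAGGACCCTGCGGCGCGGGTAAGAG

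Proteoglycan genes are shown next, since they divided most clearly in how they varied between mice. The windows are again 250 bases before to 50 after the start, for Bgn at chrX:73483351-73483650 (plus strand), Fmod at chr1:134037004-134037303 (plus strand) and Ogn at chr13:49607765-49608064 (plus strand). Capitals mark matches, on either strand, to the TATA box letters TATAAA, to the letters CCAAT of the box of that name, or to the letters GGGCGG of the GC box, and no match to one of these overlaps a match to another.
Bgn: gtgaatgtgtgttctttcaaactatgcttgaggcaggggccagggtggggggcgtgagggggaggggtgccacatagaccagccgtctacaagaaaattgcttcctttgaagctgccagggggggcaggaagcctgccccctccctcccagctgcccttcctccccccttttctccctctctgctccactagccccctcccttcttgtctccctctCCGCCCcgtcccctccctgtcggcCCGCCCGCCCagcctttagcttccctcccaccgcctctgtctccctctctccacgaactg
Fmod: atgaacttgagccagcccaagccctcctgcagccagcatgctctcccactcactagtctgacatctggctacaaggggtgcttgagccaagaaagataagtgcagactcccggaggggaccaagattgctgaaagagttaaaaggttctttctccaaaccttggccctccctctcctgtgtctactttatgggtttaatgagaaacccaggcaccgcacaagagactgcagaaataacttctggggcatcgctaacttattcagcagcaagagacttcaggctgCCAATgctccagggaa
Ogn: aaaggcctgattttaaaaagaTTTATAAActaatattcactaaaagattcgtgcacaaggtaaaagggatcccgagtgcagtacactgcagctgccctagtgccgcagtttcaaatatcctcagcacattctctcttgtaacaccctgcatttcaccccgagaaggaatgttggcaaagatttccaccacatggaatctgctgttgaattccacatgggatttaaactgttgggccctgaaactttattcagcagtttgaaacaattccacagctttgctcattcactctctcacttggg

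Of these motifs Bgn held the GC box alone, Fmod the CCAAT box alone and Ogn the TATA box letters alone. Among 32851 RefSeq windows of the same length, 13.6% held the TATA box letters, 37.4% those of the CCAAT box and 35.7% those of the GC box. Of the 42 windows on hand for 34 of the member genes, some of which have several, 7 held the TATA box letters, 14 the CCAAT box and 23 the GC box.

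Of the 44 matrix genes tested, 18 passed an adjusted p threshold of 0.05 with less signal in the gastric node (limma, Benjamini-Hochberg over all features) and none with more, while 26 did not pass. That is 40.9% of the members, against 4.45% of all genes and unnamed transcripts called lower and 3.09% called higher. The mean log2 ratio was below 0 for 38 of the 44, against 41.9% of all features. In 24 genes the ratio was below 0 in 4 of 4 mice, against 17.0% of all features. No member was above 0 in 4 of 4 mice, against 24.1% of all features. The median of the members was -0.36, while that of all features was 0.03. In mice 1 to 4 the members' median was -0.11, -0.31, -0.52 and -0.45, so each mouse was below 0 and mouse 1 was nearest to it.

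The calls depended on which mice were kept. Without mouse 2, mouse 3 or mouse 4 none of the 44 passed, with smallest adjusted p values of 0.134, 0.0797 and 0.151. Over all features 0, 3 and 1 passed. At an unadjusted p under 0.05 were 24, 26 and 24 members, against 4343, 5732 and 4299 of all 21320 features. Without mouse 1, 26 members were lower, among them all 18, while 2167 of all 21320 features were called in either direction. The members' median stayed at -0.42, -0.32 and -0.33 without mouse 2, 3 and 4, and was -0.46 without mouse 1.

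The level against which a ratio is read also mattered. When arrays were centred on their median in place of the intensity-dependent loess curve, the median of all features moved to 0.32, and 7 members were called lower and 7 higher, against 9.69% and 60.1% of all features. Read relative to the median of all features tested, a setting chosen after seeing the data, 22 members were lower and none was higher, against 32.8% and 30.0% of all features. These 22 took in 17 of the 18 members called with loess, and Fn1 was the one lost. The members' median there was -0.27.

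**Figure D1:**
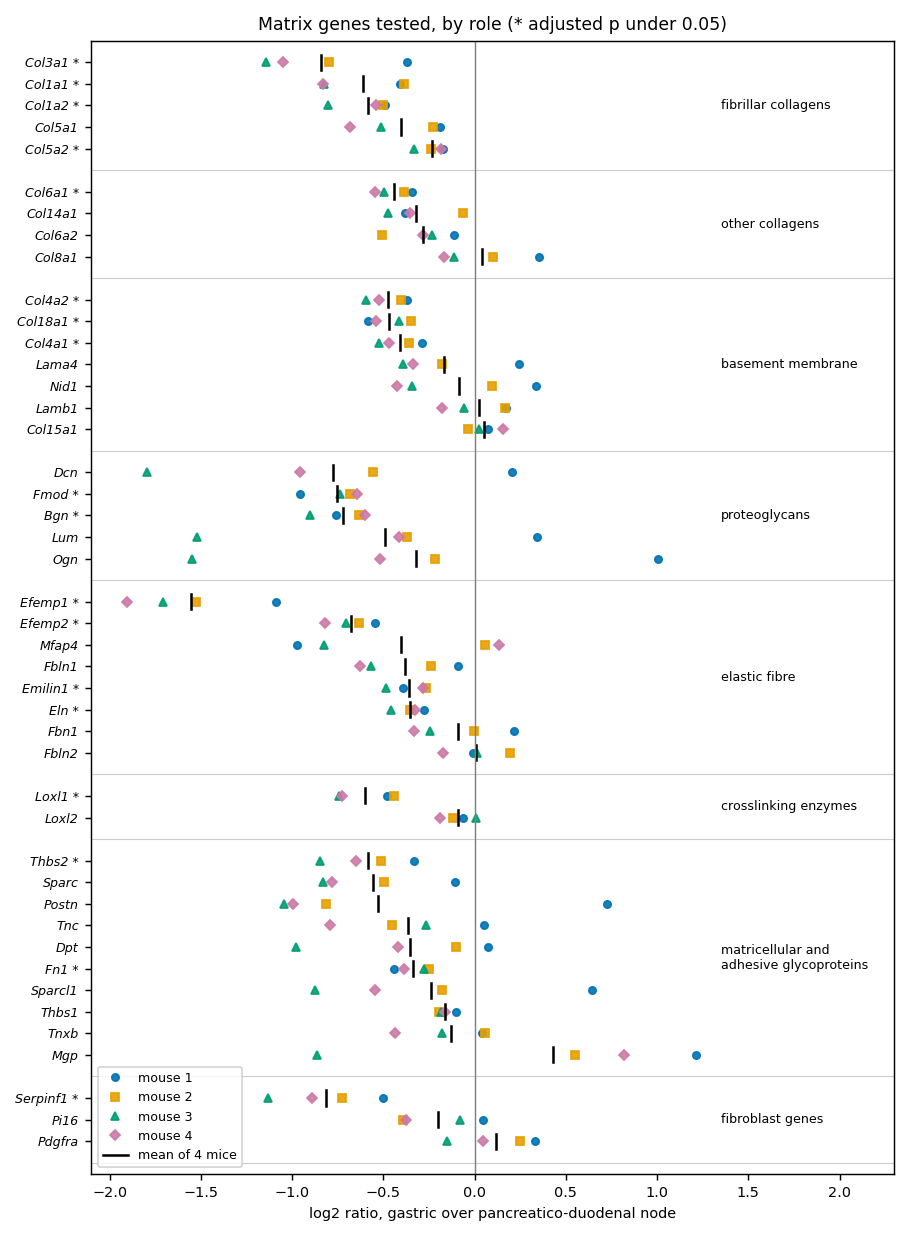
Log2 ratio of gastric over pancreatico-duodenal node (x axis) for each of the 44 matrix genes tested (rows, grouped by role), with a symbol for each of the 4 mice and a bar at their mean; a star marks an adjusted p under 0.05. Efemp1 lies farthest to the left at a mean of -1.56, and the symbols of Dcn, Lum, Ogn, Postn, Sparcl1 and Mgp are spread most widely.

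Among the fibrillar collagens 4 of 5 were lower, none was higher and 1 did not pass, with a group median of -0.58. Col3a1, the chain of type III collagen that is abundant in reticular fibres, read -0.37, -0.80, -1.14 and -1.05 in mice 1 to 4. All 4 mice were below 0 and mouse 1 was the closest to it. Its mean was -0.84 ± 0.34 (SD, n = 4; adjusted p = 0.0319), which is 1.79-fold lower, with a log2 intensity of 12.19 in the gastric node and 13.03 in the pancreatico-duodenal node.

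Col1a1 and Col1a2 encode the alpha chains that form type I collagen, the main fibre of tendon, bone and capsule. Col1a1 read -0.41, -0.39, -0.82 and -0.83 (mean -0.61 ± 0.25, SD, n = 4; adjusted p = 0.0329). Mice 1 and 2 lay close together, and so did mice 3 and 4 at a lower ratio. Col1a2 read -0.49, -0.50, -0.81 and -0.54 (mean -0.58 ± 0.15, SD, n = 4; adjusted p = 0.0250), and here mouse 3 alone stood apart. With the mean of -0.61 for Col1a1 and of -0.58 for Col1a2, the partner chains lay closer to each other than the SD of either.

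Type V collagen sits inside type I fibres and limits their width. Col5a2 read -0.18, -0.24, -0.33 and -0.18 in mice 1 to 4 and was 1.18-fold lower (mean -0.23 ± 0.07, SD, n = 4; adjusted p = 0.0471), the smallest change that passed among the members. Col5a1 was below 0 in 4 of 4 mice too, at -0.40 ± 0.24 (SD, n = 4), but did not pass (adjusted p = 0.0585). Col3a1 and Col5a2 are next to each other among the coding genes of chromosome 1. Col3a1 had the lower ratio of these neighbours in each mouse.

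The other collagens were less uniform, with 1 of 4 lower and a group median of -0.30. Col6a1, a chain of the beaded-filament collagen that links cells to the surrounding matrix, was lower at -0.44 ± 0.09 (SD, n = 4; adjusted p = 0.0250), with all 4 mice between -0.55 and -0.35. Its partner chain and neighbouring gene Col6a2 read -0.11, -0.51, -0.23 and -0.28 and did not pass (adjusted p = 0.0682). Col14a1, a collagen that decorates fibres, did not pass at -0.32 ± 0.18 (SD, n = 4). Col8a1, a short-chain collagen of vessel walls, had mice on both sides of 0, from -0.17 to 0.35.

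In the basement membrane group 3 of 7 genes were lower, none was higher and 4 did not pass, with a median of -0.17. Col4a1, Col4a2 and Col18a1 were lower, while Col15a1, Nid1, Lama4 and Lamb1 did not pass on the probe used. Col4a1 read -0.29, -0.36, -0.52 and -0.47 in mice 1 to 4. Col4a2, which starts from the shared region printed above, read -0.37, -0.40, -0.60 and -0.52. On these probes, the brightest of each gene, the order of the 4 mice was the same for both genes of the pair. The further kept probe of Col4a2 read -0.73, -0.49, -0.68 and -0.63, lowest in mouse 1, and did not share that order. The means were -0.41 ± 0.11 for Col4a1 (SD, n = 4; adjusted p = 0.0280) and -0.47 ± 0.10 for Col4a2 (SD, n = 4; adjusted p = 0.0250).

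Col18a1 encodes the collagen whose fragment is endostatin, an inhibitor of vessel growth. It read -0.58, -0.35, -0.41 and -0.54 (mean -0.47 ± 0.11, SD, n = 4; adjusted p = 0.0250). Unlike the probes used for the type IV pair, but like the further Col4a2 probe, Col18a1 was lowest in mouse 1. Col15a1, its close relative, stayed between -0.04 and 0.15 with a mean of 0.05 ± 0.08 (SD, n = 4; adjusted p = 0.498). Nid1, which bridges laminin and type IV collagen, read 0.33, 0.10, -0.34 and -0.42, above 0 in 2 mice and below 0 in 2. The laminin genes were at -0.17 ± 0.29 for Lama4 and 0.03 ± 0.17 for Lamb1 (SD, n = 4 each), and both had mice on either side of 0.

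Among 5 proteoglycan genes tested, 2 were lower, none was higher and 3 did not pass, with a group median of -0.72. Bgn, which encodes biglycan, read -0.76, -0.63, -0.90 and -0.60 in mice 1 to 4. Fmod, which encodes the collagen-binding fibromodulin, read -0.96, -0.69, -0.74 and -0.64. In both genes all 4 mice lay well below 0 and within a narrow range. Bgn was 1.65-fold lower (-0.72 ± 0.14, SD, n = 4) and Fmod 1.69-fold lower (-0.76 ± 0.14, SD, n = 4), each with an adjusted p of 0.0198.

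The other proteoglycans differed from mouse to mouse by more than their mean. Dcn, which encodes decorin, read 0.20, -0.56, -1.80 and -0.96. Lum, the lumican gene and the neighbour of Dcn on chromosome 10, read 0.34, -0.37, -1.52 and -0.42. Ogn, which encodes osteoglycin, read 1.01, -0.22, -1.55 and -0.52. In all 3 genes mouse 1 was above 0 and mouse 3 the lowest, with mice 2 and 4 between them. Their means of -0.78 ± 0.83, -0.49 ± 0.77 and -0.32 ± 1.05 (SD, n = 4 each) did not pass, with adjusted p values of 0.156, 0.290 and 0.597. At a mean log2 intensity of 13.85 in the gastric node and 14.63 in the pancreatico-duodenal node, Dcn was the brightest member probe.

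**Figure D2:**
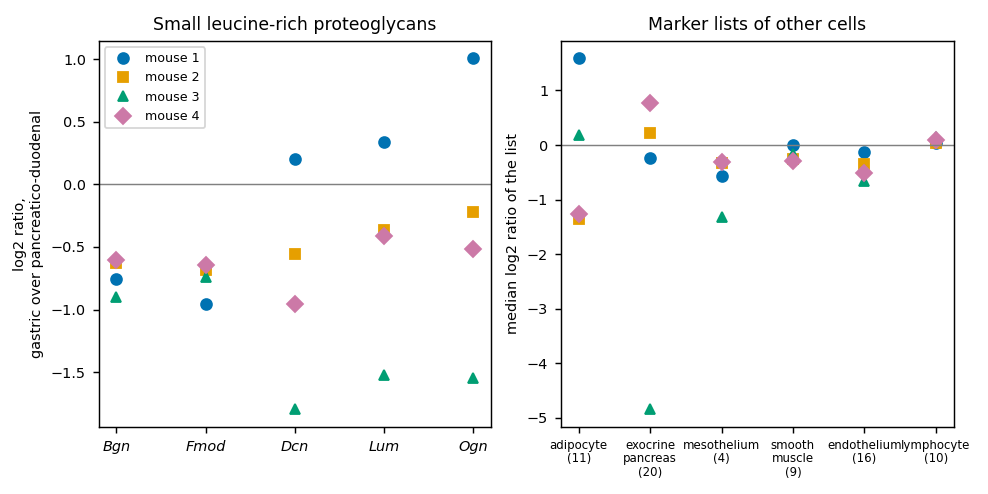
Left, log2 ratio of gastric over pancreatico-duodenal node for 5 proteoglycan genes in each of the 4 mice. Right, the median log2 ratio in the same mice of marker lists of other cells, with the number of genes tested in brackets; Bgn and Fmod stay between -0.96 and -0.60, while Ogn runs from -1.55 in mouse 3 to 1.01 in mouse 1.

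Markers of tissue around a node also differed between the mice. The exocrine pancreas list (20 of 23 genes tested) had medians of -0.24, 0.22, -4.85 and 0.76 in mice 1 to 4, and mouse 3 was the lowest there as for Dcn, Lum and Ogn. The adipocyte list (11 of 14 tested) had medians of 1.59, -1.35, 0.18 and -1.27, and mouse 1 was the highest there as for these 3 genes, while mouse 3 was not low. The mesothelium list (4 of 9 tested, among them the keratins Krt8 and Krt18 that exocrine cells also make) had medians of -0.56, -0.34, -1.32 and -0.32. None of the adipocyte and exocrine pancreas genes passed, and Krt7 was the mesothelium gene that did (-0.34 ± 0.09, SD, n = 4; adjusted p = 0.0305). The part of these tissues in the proteoglycan ratios was not tested.

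Of 8 elastic fibre genes tested, 4 were lower, none was higher and 4 did not pass, with a median of -0.37. Efemp1, which encodes fibulin 3, a secreted glycoprotein of elastic tissue, had the ratio farthest from 0 of all members. It read -1.09, -1.53, -1.71 and -1.90 in mice 1 to 4, so that even the mouse nearest to 0 was below -1. The mean of -1.56 ± 0.35 (SD, n = 4; adjusted p = 0.0198) is 2.94-fold lower, with a log2 intensity of 6.94 in the gastric node and 8.50 in the pancreatico-duodenal node. The ratio of the scanner software put the same gene at -2.34. Its relative Efemp2, the fibulin 4 gene needed to build elastic fibres, read -0.54, -0.63, -0.70 and -0.82 (mean -0.68 ± 0.12, SD, n = 4; adjusted p = 0.0198). The mice stood in the same order for both genes.

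Eln, the elastin gene, was at -0.36 ± 0.08 (SD, n = 4; adjusted p = 0.0286) and Emilin1, which encodes a glycoprotein at the elastin surface, at -0.36 ± 0.10 (SD, n = 4; adjusted p = 0.0309). Both were between -0.49 and -0.27 in 4 of 4 mice. The fibrillin gene Fbn1 was at -0.09 ± 0.25 and the fibulin gene Fbln2 at 0.01 ± 0.15 (SD, n = 4 each), and neither passed. Fbln1 was below 0 in 4 of 4 mice, from -0.63 to -0.09, and did not pass (adjusted p = 0.0752). Mfap4, a microfibril-associated gene, divided the mice into 2 pairs: -0.97 and -0.82 in mice 1 and 3, and 0.06 and 0.13 in mice 2 and 4.

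The crosslinking enzymes oxidise lysines so that collagen and elastin chains join. Loxl1, the member of the family tied to elastin, read -0.48, -0.44, -0.75 and -0.72 in mice 1 to 4 and was 1.51-fold lower (mean -0.60 ± 0.16, SD, n = 4; adjusted p = 0.0250). Loxl2 was dim and did not pass at -0.09 ± 0.08 (SD, n = 4; adjusted p = 0.270). It was well above background on 4 of 4 arrays in the gastric node channel and 3 of 4 in the pancreatico-duodenal node channel.

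In the matricellular and adhesive glycoproteins 2 of 10 were lower, none was higher and 8 did not pass, with a median of -0.35. Thbs2, a thrombospondin gene that restrains vessel growth and shapes collagen fibres, read -0.33, -0.51, -0.85 and -0.65 (mean -0.59 ± 0.22, SD, n = 4; adjusted p = 0.0309). Fn1, the fibronectin gene, read -0.44, -0.25, -0.28 and -0.39 (mean -0.34 ± 0.09, SD, n = 4; adjusted p = 0.0310). Both were below 0 in each mouse. Thbs1 was at -0.16 ± 0.04 and, though below 0 in 4 of 4 mice, did not pass (adjusted p = 0.0737).

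Sparc, which encodes a collagen-binding protein needed for fibre assembly, read -0.11, -0.50, -0.83 and -0.78 on its brightest probe and just missed the threshold (mean -0.56 ± 0.33, SD, n = 4; adjusted p = 0.0569). Postn, the periostin gene, read 0.73 in mouse 1 and -0.82, -1.04 and -0.99 in mice 2 to 4. Sparcl1, a relative of Sparc, read 0.64, -0.18, -0.87 and -0.54. Mouse 1 was thus the highest and mouse 3 the lowest for these 2 genes, as for Dcn, Lum and Ogn. Dpt, which encodes dermatopontin, had the same order of extremes, from 0.08 to -0.98.

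Mgp, the matrix Gla protein gene that keeps vessel walls free of calcium, was the member with the highest mean, 0.43 ± 0.90 (SD, n = 4; adjusted p = 0.415), which did not pass. It was above 0 in mice 1, 2 and 4, at 1.21, 0.55 and 0.82, and below 0 in mouse 3, at -0.87. Tnc was at -0.36 ± 0.35 and Tnxb at -0.13 ± 0.23 (SD, n = 4 each), and neither of these tenascin genes passed.

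Of the 3 genes chosen for fibroblasts, Serpinf1 was lower. This gene of the secreted anti-angiogenic factor PEDF read -0.50, -0.73, -1.13 and -0.89 in mice 1 to 4 and was 1.76-fold lower (mean -0.81 ± 0.27, SD, n = 4; adjusted p = 0.0257). Pdgfra, the receptor gene widely used to mark fibroblasts, was above 0 in 3 of 4 mice with a mean of 0.12 ± 0.22 (SD, n = 4; adjusted p = 0.403). Pi16, a marker of fibroblasts around vessels, was at -0.20 ± 0.22 (SD, n = 4; adjusted p = 0.189). The lowest ratio of Pdgfra, -0.15 in mouse 3, was above the highest of Col1a2, -0.49 in mouse 1.

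**Figure D3:**
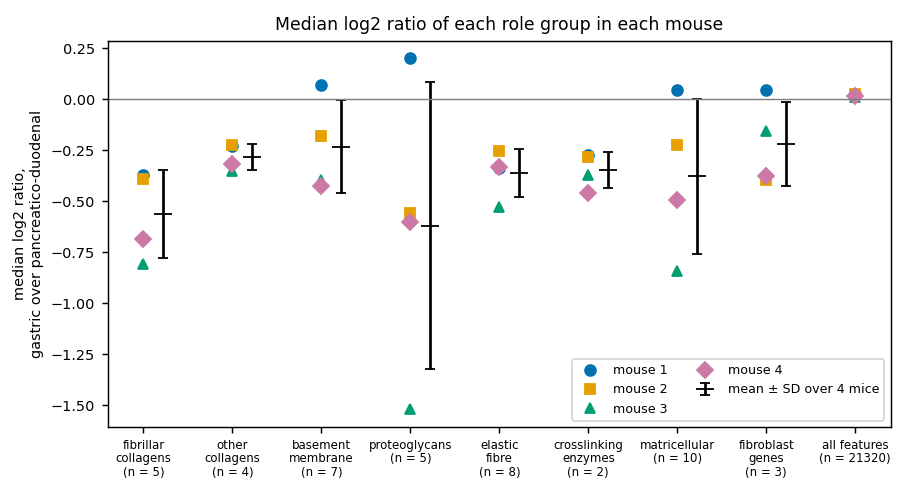
Median log2 ratio of gastric over pancreatico-duodenal node over the tested genes of each role group (number of genes in brackets) in each of the 4 mice, with the mean ± SD over mice beside it and all features at the right. Fibrillar collagens, other collagens, elastic fibre and crosslinking genes lie below 0 in each mouse, while proteoglycans run from 0.20 in mouse 1 to -1.52 in mouse 3.

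The role groups were set side by side by their median in each mouse. Mean group medians over the mice were -0.56 ± 0.22 for fibrillar collagens, -0.62 ± 0.70 for proteoglycans, -0.36 ± 0.12 for elastic fibre genes and -0.23 ± 0.23 for basement membrane genes (SD, n = 4 each). Without mouse 3 the proteoglycan value was -0.32 and the fibrillar value -0.48, which turned the order of these groups. With the mean of a gene's probes in place of the brightest, the fibrillar value was -0.38. With median centring read relative to all features, the median of the gene means was -0.24 for fibrillar collagens and -0.36 for elastic fibre genes. The order of fibrillar and elastic fibre genes thus depended on the normalization. Fibrillar collagens were at -0.37, -0.39, -0.81 and -0.68 and elastic fibre genes at -0.34, -0.25, -0.53 and -0.33 in mice 1 to 4. Basement membrane genes were at 0.07, -0.18, -0.39 and -0.42, so the fibrillar median was lower than the basement membrane median in each mouse. Medians of so few genes describe the groups, and their differences were not tested, since 4 mice are too few for an exact sign-flip test to reach a p of 0.05.

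The spread over mice also divided the members by call. The 18 genes that were lower had SDs from 0.07 to 0.35 with a median of 0.13, and the 26 that did not pass had SDs from 0.04 to 1.05 with a median of 0.25, against a median of 0.12 for all features. A small SD helps a gene to pass, so this division is in part made by the test. Mouse 1 had the highest ratio of the 4 mice in 31 of the 44 members, or 70.5%, against 38.2% of all features. Mouse 3 had the lowest in 22 of the 44, against 31.7% of all features.

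Further probes of the same genes gave a second reading, which shares the RNA and the array and is no replicate. For 15 genes more than 1 probe was kept, and in 14 of them all probes had the same sign. Over all kept probes of the members, 25 of 62 were lower and none was higher, against 4.92% and 2.99% of all kept probes. Of the 18 further probes 16 were below 0 and 7 were lower at an adjusted p under 0.05 over probes.

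The further probes read -0.37 for Col4a1, -0.63 for Col4a2, -0.41 for Col18a1, -0.66 for Serpinf1 and -0.42 for Sparc, and those of Col4a2, Col18a1, Serpinf1 and Sparc were themselves lower, with adjusted p values over probes of 0.0181, 0.0239, 0.0234 and 0.0467. Several dim further probes read nearer to 0. Col3a1 had a probe at a mean log2 intensity of 6.37 that read -0.12 ± 0.08 (SD, n = 4), against -0.84 at 12.61. Col1a1 had probes at -0.61, -0.51 and -0.11, in falling order of brightness, and Fn1 at -0.34, -0.37 and 0.00. The dimmest Col1a1 probe was well above background on 4 of 4 arrays in the gastric node channel and 1 of 4 in the pancreatico-duodenal node channel. Lama4 went the other way, with -0.17 and -0.12 on its brighter probes and -0.36 on the dimmest, which was lower (adjusted p over probes = 0.0442).

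**Figure D4:**
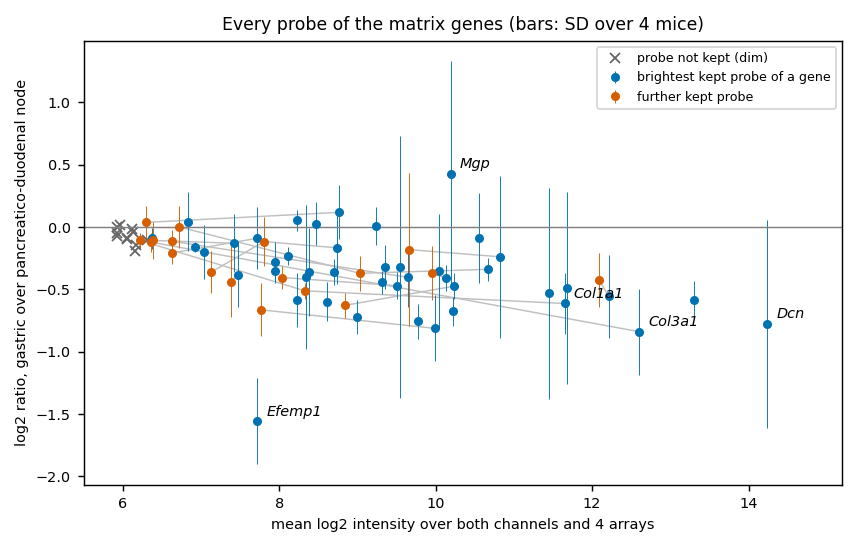
Mean log2 ratio of gastric over pancreatico-duodenal node (y axis, bars are the SD over 4 mice) against mean log2 intensity (x axis) for every matrix probe, with grey lines joining kept probes of a gene and crosses for dim probes that were not kept. Probes near the dim end lie close to 0, with Col3a1 reading -0.84 at an intensity of 12.61 and -0.12 at 6.37.

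Brightness was therefore set beside the counts. At mean log2 intensities from 8 to 10, which held more members than any other bin, 9 of 19 members were lower, against 6.28% of all features there. From 10 to 12 it was 5 of 11, against 5.88%. Up to 8 it was 2 of 10, against 2.60%, and from 12 to 14 it was 2 of 3, against 5.66%. The share of members lower was above that of all features in each of these 4 bins, and Dcn, the one member from 14 to 16, did not pass.

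Genes of collagen synthesis and processing that are not members were read from a separate list of 23, of which 18 were tested. Of these 6 were lower, none was higher and 12 did not pass, with a median of -0.20. P3h3, a prolyl hydroxylase family gene, was at -0.63 ± 0.10, Adamts2, the protease that trims type I procollagen, at -0.54 ± 0.14 and Serpinh1, the collagen chaperone HSP47, at -0.50 ± 0.23 (SD, n = 4 each; adjusted p = 0.0198, 0.0250 and 0.0404).

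Of 17 tested collagen genes that are not members 2 were lower, none was higher and 15 did not pass. They were Col16a1 (-0.67 ± 0.28, SD, n = 4; adjusted p = 0.0330) and Col9a3 (-0.29 ± 0.08, SD, n = 4; adjusted p = 0.0373). Among 9 further basement membrane genes, Lamb2 (-0.51 ± 0.13) and Smoc2 (-0.43 ± 0.19) were lower (SD, n = 4 each; adjusted p = 0.0251 and 0.0414). Of 10 receptors for collagen and laminin 1 was lower, the dystroglycan gene Dag1 at -0.41 ± 0.01 (SD, n = 4; adjusted p = 0.0218). Of 18 genes of TGF-beta and fibroblast growth signals 1 was lower, Pdgfc at -0.62 ± 0.17 (SD, n = 4; adjusted p = 0.0250). The other 17 did not pass, and the median of that list was -0.11. Of all features 4.45% were called lower, so a single call among 10 or 18 genes is no result about the list.

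Marker lists of cells that lay down matrix in a node were read beside the members. Of 11 genes of fibroblastic reticular cells 2 were lower and none was higher, Ltbr (-0.35 ± 0.15) and Madcam1 (-0.25 ± 0.09), which vessels also make (SD, n = 4 each; adjusted p = 0.0447 and 0.0497). The other 9 did not pass. Among them Ccl19 (0.41 ± 0.33) and Bst1 (0.18 ± 0.11) were above 0 in each mouse, and Pdpn (-0.19 ± 0.05) was below 0 in each (SD, n = 4 each). Ccl19 had a mean log2 intensity of 16.32, and all features from 16 to 20 had a median ratio of 0.25. Il33 (-0.61 ± 0.49) and Cxcl12 (-0.40 ± 0.47) were above 0 in mouse 1 only and lowest in mouse 3 (SD, n = 4 each). Cxcl13, Il7, Tnfsf11 and Ccl21a had mice on both sides of 0, with means of 0.23, -0.11, -0.06 and -0.004. The median of this list was 0.11, -0.17, -0.18 and -0.21 in mice 1 to 4. Of 9 smooth muscle genes 2 were lower, Des and Smtn, and of 16 endothelial genes 7 were lower. The median of the smooth muscle list was 0.00, -0.25, -0.16 and -0.30 in mice 1 to 4 and that of the endothelial list -0.12, -0.34, -0.67 and -0.51. Genes of lymphocytes, the main cells of a node, had medians of 0.04, 0.04, 0.14 and 0.09. Of 12 macrophage genes 6 were lower, and the list's medians were -0.12, -0.78, -1.14 and -0.71, highest in mouse 1 and lowest in mouse 3 as for the members' medians. The part of vessel and macrophage cells in the matrix ratios was not tested.

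**Figure D5:**
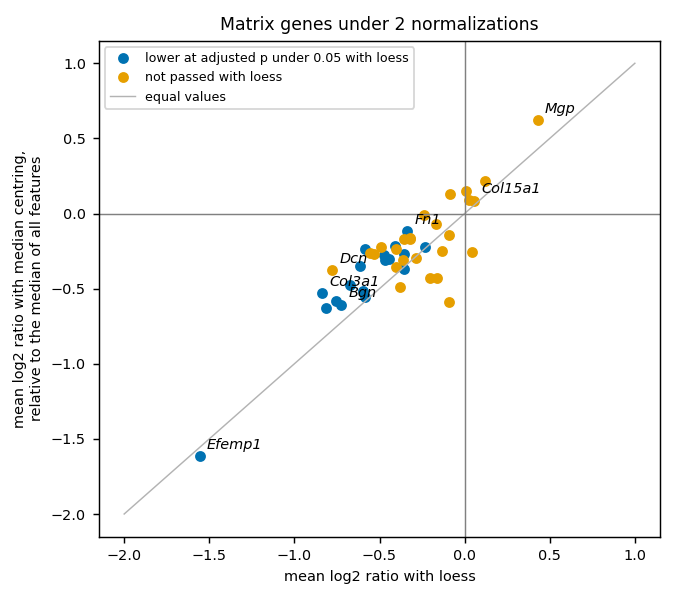
Mean log2 ratio of gastric over pancreatico-duodenal node for each of the 44 matrix genes with loess (x axis) and with median centring read relative to the median of all features (y axis). Efemp1 lies at -1.56 and -1.62, Bgn at -0.72 and -0.61, and Fn1 at -0.34 and -0.12.

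The plot of both normalizations showed which members depended on the curve taken out. On the relative scale of median centring Efemp1 was at -1.62, Serpinf1 at -0.63, Bgn at -0.61, Fmod at -0.58 and Col3a1 at -0.53, all lower. Col1a2 moved to -0.24 and Col4a1 to -0.22 and stayed lower, while Fn1 moved to -0.12 and was not called (adjusted p = 0.160). Loxl2, Thbs1, Pi16, Fbln1 and Col6a2, none of which passed with loess, were lower on this scale, at -0.59, -0.43, -0.43, -0.49 and -0.30. Their mean log2 intensities were 6.37, 6.92, 7.04, 7.48 and 7.95. Before being read relative to all features, they were at -0.28, -0.13, -0.12, -0.18 and 0.01 with median centring. Every member probe too dim to be kept read between -0.49 and -0.33 there. The part of dimness in these calls was not tested.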

How the data were processed

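The deposited scanner files hold, per the file headers, the mean and background median intensity of 45018 spots per array in both channels, made by the authors with Agilent Feature Extraction 10.2.1.3, and its log10 ratio of processed Cy5 over Cy3. Per probe, the table of log2 values deposited by the authors gave 1 ratio, and 99.7% of these equalled the processed ratio within 0.001. The scanner software's slope of observed over expected spike-in ratios was 0.938 to 0.954, per the file headers.

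Intensities were corrected with normexp (offset 50), normalized by loess and averaged per probe in limma 3.58.1 (R 4.3.3, with the data.table package, 1.17.8). Probes well above background in 1 channel on at least 3 of 4 arrays were kept (27603). No spot was saturated, and all arrays lay on 1 slide. Probes were named through RefSeq accessions (GRCm38.p6), for 24844 of 41174. The brightest probe of a gene was used. The mean ratio was tested against 0 with lmFit and eBayes, Benjamini-Hochberg adjusted over 21320 features at 0.05. Probes well above background were 67.1% to 71.4% in the gastric and 59.6% to 62.6% in the pancreatico-duodenal channel, and the number of arrays limits the precision. Every member may be named, with up to 4 called members or the 2 brightest of a role group in full, and up to 3 called genes of other lists, of which 1 is not reported here. Members and lists were chosen with earlier results of these data known. Other background corrections, normalizations, filters, probe rules, variance models and thresholds, each array left out and no replicate block were tried. Background correction, normalization and fit were tested on simulated data in R, and sequences and figures were handled in Python 3.11.15.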

Additional observations from a re-analysis of the deposited data

Results flagged for a closer look

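In 2 of the 44 matrix genes 1 mouse stood far from the other 3 by Dixon's gap test, a share of 4.55% against 6.24% of all features, and chance flags about 1 gene in 20. For Col1a2 the ratio of mouse 3, -0.81, lay apart from -0.49, -0.50 and -0.54. For Postn the ratio of mouse 1, 0.73, lay apart from -0.82, -1.04 and -0.99.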

How the results depend on the processing

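Over the settings tried, the count of matrix genes lower stayed between 16 and 24 and none was higher, except as follows. The count of 24 was at an adjusted p threshold of 0.10. Leaving out 1 mouse, the counts ranged from 0 to 26 genes and from 0 to 36 probes. The highest counts came without replicate 1, where 2167 of all 21320 features and 3052 of all 27603 kept probes were called in either direction. Without replicate 2, 3 or 4 the counts of genes and of probes lower were both 0, and the genes' lowest adjusted p was 0.134, 0.0797 and 0.151. With no replicate block, where the channels were 8 separate samples, 0 genes and 0 probes were lower, and the lowest adjusted p among the genes was 0.0594. Median centring moved the median of all features to 0.32. With it 7 genes were lower and 7 higher, and 16 probes were lower and 7 higher. In either direction it called 14887 of all 21320 features and 18967 of all 27603 kept probes. Members with a mean below 0 then numbered 18, against 38 with loess. Among the called genes the sign of Col1a2 (0.0681), Col5a2 (0.0860), Col6a1 (0.00696), Col4a1 (0.0885), Col4a2 (0.0325), Emilin1 (0.0404) and Fn1 (0.19) turned there, and Nid1 was called higher (0.44). Centred on the features tested instead, 1 probe was higher.

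Mean group medians moved with median centring to 0.0315 for all members, 0.00921 for fibrillar collagens, 0.0406 for other collagens, 0.20 for basement membrane, -0.0260 for proteoglycans, -0.0446 for elastic fibre, -0.25 for crosslinking enzymes and 0.0455 for matricellular genes. Centred on the features tested they were -0.30 for fibrillar collagens, -0.33 for proteoglycans, -0.10 for basement membrane and -0.55 for crosslinking enzymes. With the scanner software's ratio and with the authors' series table alike they were -0.37 for other collagens, -0.49 for elastic fibre and -0.56 for crosslinking enzymes. The calls of Col5a2, Emilin1 and Fn1 were lost with both of these, that of Col5a2 also with an intensity trend and robust variance (adjusted p = 0.0585) and that of Fn1 with the mean of a gene's probes (0.0679). The cause of these shifts was not tested. Dim probes limit what can be read: 11 of 73 were not tested.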
